A study of Mus musculus with 6 samples.

Results

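The genes described here are 10 genes that macrophages are known for: C1qa, C1qb and C1qc, which encode the chains of complement C1q, and Adgre1, Csf1r, Cd14, Tyrobp, Fcer1g, Mpeg1 and Lyz2. They were chosen by name with earlier results of these data known, so counts of them describe the list and do not test it. Each was found as 1 row of the deposited table with a single gene symbol. Thus 10 of 10 were present among 19937 genes with such a row. All 10 had a mean over the arrays above the filter value of 5.21 on the log2 scale, under which genes were left out, and were among the 15037 genes tested. Lyz2 has a near-identical copy, Lyz1, and its value is uncertain as to which copy it measures.

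The study transferred total T cells from the periphery of wild-type mice into recipients that lack CD3ε and therefore cannot make T cells. The MHC II-competent recipients were CD3ε-deficient, and the MHC II-deficient recipients lacked both CD3ε and MHC class II, the molecules that present peptides to CD4+ T cells. The strain is given as C57BL/6 and the age as 6 to 8 weeks, without saying whether this refers to donors or recipients. On day 5 the regulatory T cells (Tregs) were isolated as CD4+ TCRβ+ CD25+ cells with magnetic beads and then a cell sorter, with peripheral lymph nodes and spleen as the tissue of origin. Each of 3 arrays per group held labelled cDNA from 100 ng of total RNA. The labels call the 3 preparations biological replicates but do not give the number of recipients behind each, so the p-values reflect only the variation among those preparations. Neither deletion is known to remove the macrophages of the recipients. Below, "competent" or "deficient" with a number from 1 to 3 names an array by its recipient and replicate, and values are log2 expression values of robust multi-array averaging (RMA).

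C1q is the recognition molecule of the classical complement pathway. It binds antibody complexes and dying cells, and macrophages are its main source, in contrast to most complement proteins, which the liver makes. Macrophages grow and survive under the CSF1 receptor, carry the adhesion receptor EMR1, and pass signals from many activating receptors through the adaptors that Tyrobp and Fcer1g encode. T cells are not known as a main source of C1q.

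C1qb, C1qc and C1qa lie next to each other in this order, with no other protein-coding gene between them, in RefSeq's annotation of GRCm38.p6. The bases before the starts of C1qb and C1qc are shown because these genes are neighbours that encode chains of a single protein. The sequence tables from RefSeq held an entry for 5 of the 10 genes, C1qb, C1qc, Fcer1g, Mpeg1 and Lyz2. Each line below gives the 200 bases just before the start, 5′ to 3′ on the gene's own strand, with capitals for the letters GAGGAA on either strand, the core of the PU box that the myeloid factor PU.1 is known to bind.
C1qb, chr4:136886201-136886400, minus strand: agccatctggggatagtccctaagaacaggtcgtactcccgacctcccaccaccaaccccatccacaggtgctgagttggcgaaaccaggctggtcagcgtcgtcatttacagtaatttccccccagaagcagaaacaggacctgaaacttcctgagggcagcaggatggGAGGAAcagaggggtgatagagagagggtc
C1qc, chr4:136892915-136893114, minus strand: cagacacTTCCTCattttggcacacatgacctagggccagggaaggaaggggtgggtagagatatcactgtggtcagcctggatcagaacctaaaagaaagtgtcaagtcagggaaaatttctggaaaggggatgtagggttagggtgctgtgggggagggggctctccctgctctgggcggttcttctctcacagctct
The match of C1qb lay 30 to 25 bases before the start on the strand of the gene, and that of C1qc 193 to 188 bases before it on the opposite strand. Within 250 bases before the start, these 2 of the 5 genes held the letters, as did 23.3% of the 32851 promoters in the table, so a match is common in windows of this length.

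All 10 genes had higher group means in Tregs sorted out of MHC II-deficient recipients, and 1 of them, Adgre1, rose past the threshold of limma's test (Benjamini-Hochberg adjusted p under 0.05 over all tested genes). Of all 15037 genes tested, 1.34% rose, 2.03% fell and 3.37% passed in either direction, and 0 of the 10 genes fell. The differences ran from 0.31 for Cd14 to 1.52 for Tyrobp on the log2 scale, with a median of 1.22, against a median of 0.02 over all tested genes. In 6 of the 10 the difference was at least 1 log2 unit, as it was in 0.466% of all tested genes. The groups did not overlap for 4 of the 10, C1qc, Adgre1, Tyrobp and Fcer1g, all higher in the MHC II-deficient group, which held for 11.4% of all tested genes (24.3% counting either direction). In such a whole sort, fewer cells of a type and less RNA per cell cannot be told apart.

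**Figure D1:**
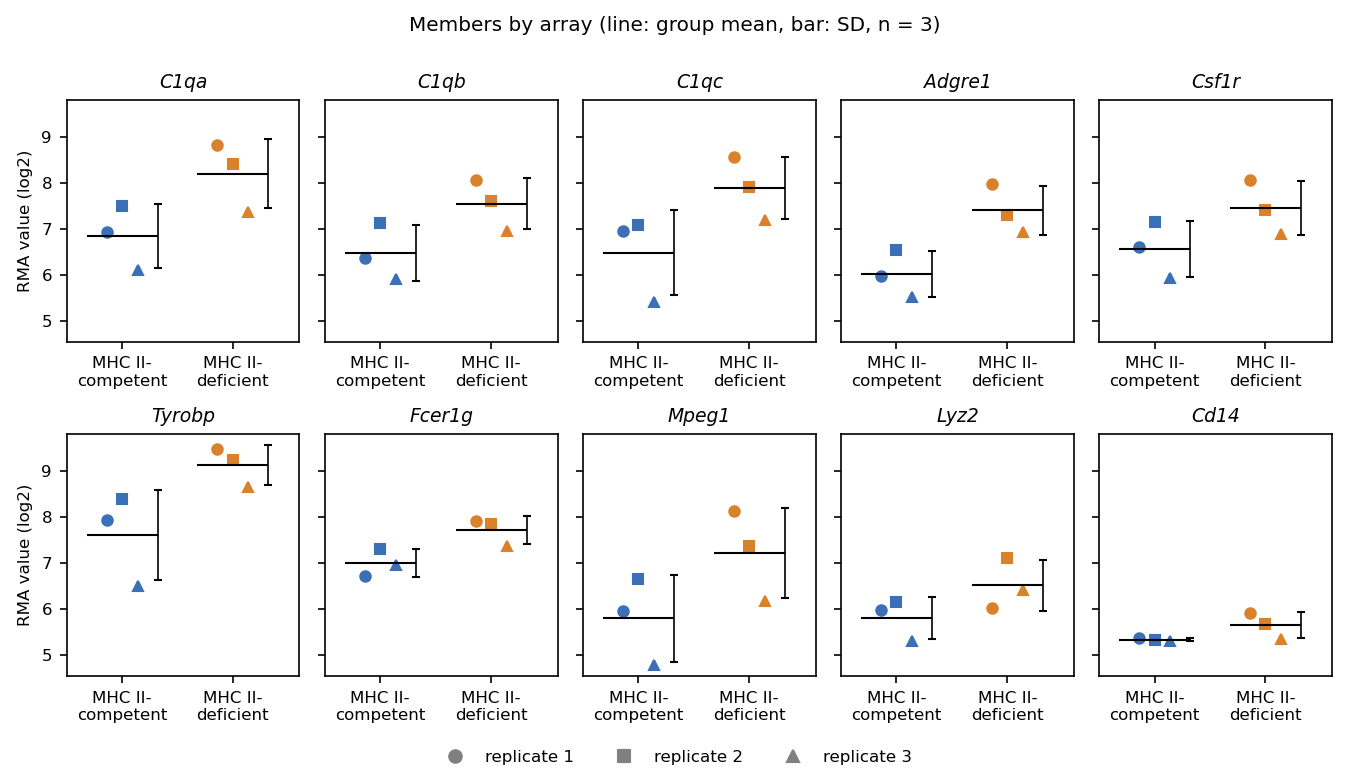
The RMA values (log2, vertical axis) of the 10 genes are plotted for each array, with blue symbols for the 3 MHC II-competent and orange for the 3 MHC II-deficient arrays. Lines are group means and bars SD (n = 3). The third preparation, a triangle, is the lowest of its group in both groups for 8 of the 10 genes, a count without a share over all tested genes.

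The 3 chains of C1q, which assemble with each other into a single protein, all had higher means in the MHC II-deficient group and did not pass the threshold. C1qa (row 10517517) read 6.93, 7.49 and 6.11 in competent 1 to 3 and 8.82, 8.42 and 7.37 in deficient 1 to 3. Deficient 1 and deficient 2 lay above every competent array, while deficient 3 lay just under competent 2. The group values were 6.84 ± 0.70 and 8.20 ± 0.75 (SD, n = 3), a difference of 1.36 (SE 0.39, 95% interval 0.47 to 2.24) with an adjusted p of 0.10.

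C1qb (row 10517508) read 6.37, 7.13 and 5.91 in the competent and 8.06, 7.62 and 6.95 in the deficient arrays. Its arrays stood in the same order as those of C1qa, with deficient 3 between competent 1 and competent 2. The difference was 1.07 (SE 0.32, 95% interval 0.34 to 1.80, adjusted p = 0.12). C1qc (row 10517513) read 6.95, 7.08 and 5.41 against 8.56, 7.91 and 7.20. Here the groups did not overlap, though the gap between competent 2 and deficient 3 was 0.12. Its difference was 1.41 (SE 0.44, 95% interval 0.42 to 2.40, adjusted p = 0.13), or 0.88 without competent 3. The mean of the 3 chains was 6.60 ± 0.72 in the competent and 7.88 ± 0.66 in the deficient arrays (SD, n = 3).

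Among the receptors, Adgre1 (row 10446282), which encodes the macrophage surface antigen EMR1, read 5.98, 6.54 and 5.53 in the competent arrays and 7.97, 7.30 and 6.94 in the deficient arrays. Every deficient array lay above every competent one, with the widest gap of the 10 genes, 0.40. It was 2.62-fold higher, from 6.02 ± 0.51 to 7.40 ± 0.52 (SD, n = 3), a difference of 1.39 (SE 0.29, 95% interval 0.74 to 2.03) with an adjusted p of 0.035 in limma's test. The adjusted p was 0.091, 0.054 and 0.055 without competent 1, 2 and 3, and 0.11 and 0.086 without deficient 1 and 2, so the call held only without deficient 3 (0.027). It also ended under quantile normalization (0.058), median centring (0.065) and a trended robust prior (0.059).

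Csf1r (row 10456071), the receptor for the macrophage growth factor CSF1, read 6.61, 7.15 and 5.93 against 8.06, 7.42 and 6.89. Competent 2 lay above deficient 3, so the groups overlapped. The difference was 0.89 (SE 0.33, 95% interval 0.15 to 1.64, adjusted p = 0.18), with 0.58 without competent 3 and 0.59 without deficient 1. Cd14 (row 10458382), the co-receptor for bacterial lipopolysaccharide, read 5.37, 5.32 and 5.30 against 5.91, 5.68 and 5.35. The competent arrays of Cd14 spanned only 0.074, near the filter value of 5.21, a range in which arrays are known to understate differences, and deficient 3 fell among them. Its difference was 0.31 (SE 0.14, 95% interval 0.0042 to 0.62, adjusted p = 0.26), and 0.18 without deficient 1.

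The signalling adaptors Tyrobp and Fcer1g encode DAP12 and the Fc receptor gamma chain, which both carry an immunoreceptor tyrosine-based activation motif (ITAM) and are also used by NK cells. Tyrobp (row 10551883) read 7.95, 8.39 and 6.51 in the competent and 9.49, 9.25 and 8.65 in the deficient arrays. The groups did not overlap, and competent 3 lay more than 1 log2 unit below the next array. The difference was the largest of the 10 at 1.52 (SE 0.41, 95% interval 0.59 to 2.45, adjusted p = 0.085), or 0.96 without competent 3.

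Fcer1g (row 10360070) read 6.72, 7.32 and 6.95 in the competent and 7.92, 7.85 and 7.37 in the deficient arrays. It was the 1 gene for which competent 1, not competent 3, was the lowest array, and its gap between groups was 0.055. The group values were 7.00 ± 0.30 and 7.71 ± 0.30 (SD, n = 3), a difference of 0.72 (SE 0.18, 95% interval 0.31 to 1.13) with an adjusted p of 0.068. Without deficient 3, Fcer1g (0.036) and C1qa (0.034) passed beside Adgre1, the 3 calls that this setting gave among the 10 genes, where 0.924% of all tested genes rose.

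The last pair are effectors of killing. Mpeg1 (row 10461721), which encodes the pore-forming protein perforin-2, read 5.96, 6.65 and 4.78 against 8.13, 7.37 and 6.17. It was the most variable of the 10 within groups, and deficient 3 lay below competent 2. The difference was 1.42 (SE 0.52, 95% interval 0.25 to 2.60, adjusted p = 0.18), and 0.91 without competent 3.

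Lyz2 (row 10372648), which encodes lysozyme, read 5.97, 6.15 and 5.30 in the competent and 6.02, 7.11 and 6.42 in the deficient arrays. Its pattern departed from the others in deficient 1, which was the highest array for the other 9 genes but the lowest deficient array for Lyz2, next to competent 1. The difference was 0.71 (SE 0.28, 95% interval 0.08 to 1.35, adjusted p = 0.21), with 0.42 without deficient 2 and 0.46 without competent 3.

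**Figure D2:**
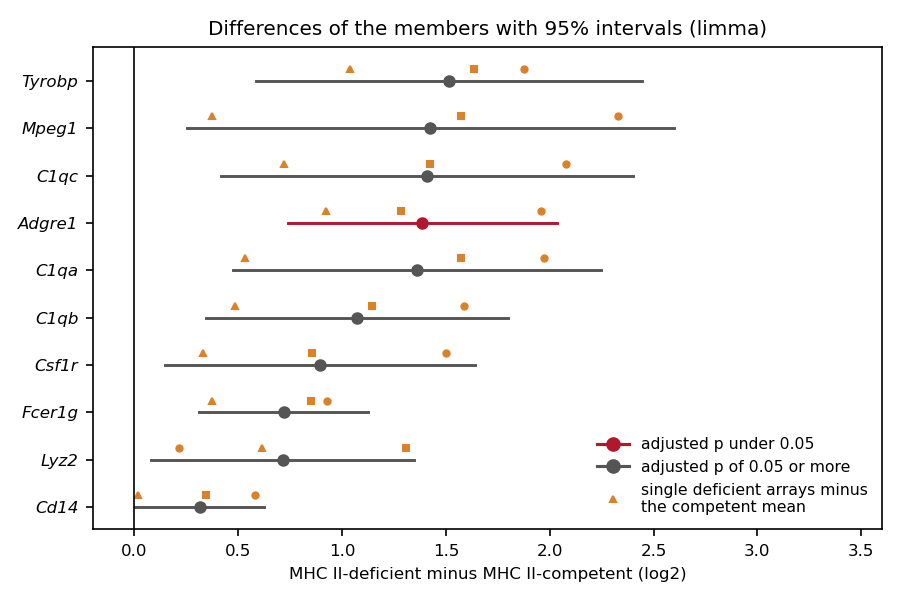
Differences of the 10 genes, MHC II-deficient minus MHC II-competent (log2, horizontal axis), are shown as dots with 95% intervals from limma, red where the adjusted p was under 0.05; small orange symbols are deficient 1 (circle), 2 (square) and 3 (triangle) minus the competent mean. Adgre1 alone is red at 1.39, and the interval of Cd14 starts close to 0.

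The 10 genes varied widely within each group as well as between groups. The pooled SD within groups had a median of 0.59 over the 10 genes, from 0.20 for Cd14 to 0.97 for Mpeg1, against a median of 0.14 over all tested genes. In 8 of the 10 it exceeded 0.31, the 95th percentile of all tested genes, the exceptions being Fcer1g (0.30) and Cd14. For 7 of the 10 the difference between the groups was smaller than the range of the 3 competent arrays alone. The share of all tested genes for which this held was not computed, so the count does not set these genes apart. The unadjusted p of limma was under 0.05 for all 10 genes and for 7.85% of all tested genes in this direction, and 0 of the 10 had such a p in the other direction.

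This variation was shared between the genes. Competent 3 was the lowest of the 6 arrays for 9 of the 10 genes, and deficient 1 the highest for 9. By comparison, competent 3 was lowest for 16.5% and deficient 1 highest for 15.2% of all tested genes. The order competent 3, competent 1, deficient 3, competent 2, deficient 2, deficient 1, from low to high, was that of 4 genes (C1qa, C1qb, Csf1r and Mpeg1). A further 3 genes (C1qc, Adgre1 and Tyrobp) differed from it only by the exchange of deficient 3 and competent 2. The mean of the 10 genes was 6.48, 6.92 and 5.77 in competent 1 to 3 and 7.89, 7.59 and 6.93 in deficient 1 to 3. Competent 2 and deficient 3, of different groups, were thus 0.010 apart in this mean.

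After each gene was set to its own mean over the 6 arrays, the root mean square distance between a pair of genes measured how alike their patterns were, in log2 units over 6 arrays of 2 groups. The genes were not scaled, so the distance depends on the size of the changes as well as on the order of the arrays. The closest pairs were C1qb with Csf1r (0.13) and C1qc with Tyrobp (0.19). Among the chains of C1q, the distances were 0.21 for C1qa with C1qb, 0.23 for C1qa with C1qc and 0.36 for C1qb with C1qc. The most distant pair was Mpeg1 with Cd14 (0.87). C1qb lay closest to the mean pattern of the 10 genes (0.11), and Lyz2 (0.50) and Cd14 (0.52) lay farthest from it. The values of Cd14 spanned only 0.61 over the 6 arrays, and those of Mpeg1 3.35.

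The genes outside the 10 with the pattern most like their mean were taken by the same distance from 15027 other tested genes, whose median distance was 0.71. The 8 closest were Ubd (0.17), Hmox1 (0.19), Trf (0.21), Sirpa (0.21), Bank1 (0.23), Fcna (0.23), Cd74 (0.23) and Dnase1l3 (0.23). Ubd encodes a ubiquitin-like protein, Hmox1 the heme-degrading enzyme heme oxygenase 1, Trf the iron carrier transferrin and Sirpa the inhibitory receptor for CD47. Bank1 encodes a scaffold protein of B cells, Fcna the lectin ficolin A, Cd74 the invariant chain of MHC class II and Dnase1l3 a secreted nuclease. All 8 were lowest in competent 3 and highest in deficient 1, which the choice by distance favours. The mean pattern includes the difference between the groups, so the choice by distance also favours genes that rise. Of the 8, Fcna (1.26, SE 0.26, adjusted p = 0.034) and Bank1 (1.06, SE 0.24, adjusted p = 0.047) rose past limma's threshold. Of all tested genes 1.34% did so, and the calls among the 8 are no separate result. Ficolin A starts the lectin pathway of complement, and Fcna was in none of the lists described next. It read 7.57, 7.63 and 7.12 against 9.31, 8.67 and 8.12. Hmox1 read 6.82, 7.41 and 6.14 against 8.50, 8.19 and 6.97. The groups did not overlap for Fcna, which held in the higher direction for 11.4% of all tested genes. Deficient 3 of Hmox1 lay among the competent arrays.

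**Figure D3:**
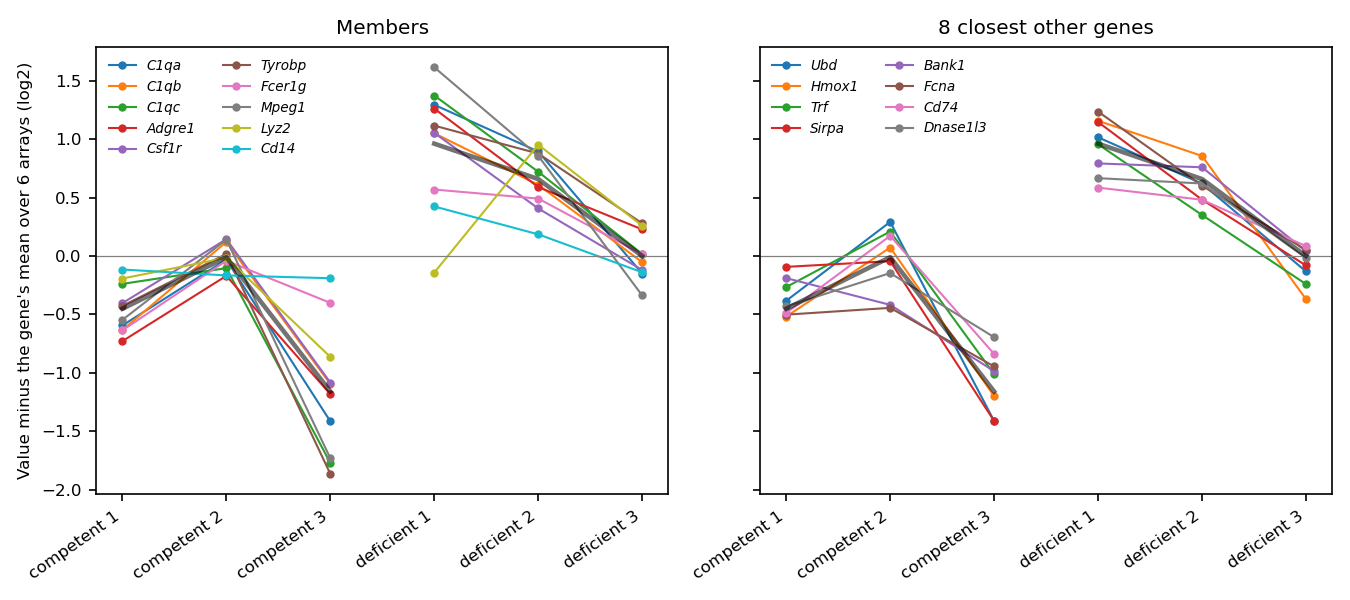
Each gene's value minus its own mean over the 6 arrays (log2, vertical axis) is plotted by array for the 10 genes (left) and for the 8 other genes with the closest pattern (right). The thick grey line is the mean of the 10 genes; thin lines only join the arrays of a group for 1 gene. Lyz2 leaves the common pattern in deficient 1, and Cd14 is nearly flat over the competent arrays.

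Of the complement genes in the lists chosen for this comparison, 0 passed. Of 7 tested genes of the early classical, lectin and alternative pathways, 0 passed limma's threshold and 2 had an unadjusted p under 0.05, Cfb, which encodes factor B (0.49, SE 0.13, adjusted p = 0.086), and Cfp, which encodes properdin (0.72, SE 0.24, adjusted p = 0.14). Their median difference was 0.18, against 1.22 for the 10 genes. C1ra, which encodes the protease that C1q activates, stood at 0.18 (SE 0.10, adjusted p = 0.34). Of 6 tested complement receptors and C1q-binding proteins 0 passed, and 3 had an unadjusted p under 0.05. C3ar1, the receptor for the complement fragment anaphylatoxin C3a, read 5.25, 5.66 and 6.14 in the competent and 6.37, 6.22 and 7.02 in the deficient arrays (0.86, SE 0.25, adjusted p = 0.10). The third preparation was thus the highest of each group for C3ar1, unlike the chains of C1q. Itgam, a subunit of complement receptor 3, stood at -0.43 (SE 0.13, adjusted p = 0.12). C1qbp, which encodes a C1q-binding protein, stood at -0.37 (SE 0.13, adjusted p = 0.15), opposite in sign to the chains of C1q. Of 3 complement regulators 0 passed and 1 had an unadjusted p under 0.05, Cd55 (-0.31, SE 0.12, adjusted p = 0.21), and Cr1l stood at -0.22 (SE 0.11, adjusted p = 0.35).

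Among 12 tested receptors that pair with the adaptors Tyrobp or Fcer1g, 1 rose, and the median difference was 0.28. It was Klrd1, which encodes CD94 of NK cells and some T cells (2.66, SE 0.21, adjusted p = 0.00056), whose competent mean of 4.67 lay under the filter value. The myeloid receptors of this list did not pass, with Trem2 at 0.27 (SE 0.10, adjusted p = 0.18) and Fcgr4 at 1.09 (SE 0.45, adjusted p = 0.23). Of 9 tested kinases and adaptors that act below such receptors, 1 rose, Pik3ap1, an adaptor of phosphoinositide 3-kinase (0.75, SE 0.11, adjusted p = 0.0080). Pik3ap1 read 6.73, 6.76 and 6.78 in the competent and 7.71, 7.45 and 7.37 in the deficient arrays, without the low value in competent 3 that marked the 10 genes.

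Of 9 tested genes of the CSF1 receptor axis 0 passed, and 1 had an unadjusted p under 0.05. This was Spi1, which encodes PU.1 (0.33, SE 0.15, adjusted p = 0.26), followed by Csf3r (0.17, SE 0.11, adjusted p = 0.45). The competent mean of Spi1, 5.07, lay under the filter value, so it entered the test through its deficient mean of 5.41. Csf1, the ligand, stood at 0.09 (SE 0.12, adjusted p = 0.74). Of 11 tested genes of the lipopolysaccharide receptor axis 0 passed and 4 had an unadjusted p under 0.05. The 2 with the smallest p were Myd88, the adaptor of Toll-like receptors (-0.30, SE 0.10, adjusted p = 0.16), and Irak3, an inhibitor of their signalling (0.45, SE 0.16, adjusted p = 0.16). Ly96, the partner of the receptor TLR4, stood at -0.77 (SE 0.28, adjusted p = 0.18), opposite in sign to Cd14.

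Other genes of macrophages and monocytes followed the 10 genes in part. Of 25 tested, 0 passed limma's threshold. Its unadjusted p was under 0.05 for 13 in the higher direction (7.85% of all tested genes) and for 3 in the lower. The difference was above 0 for 20 and below 0 for 5, with a median of 0.33. It was at least 1 log2 unit for 6, as in 0.466% of all tested genes. The groups did not overlap, with the MHC II-deficient group higher, for 7 of the 25 (11.4% of all tested genes), and with it lower for 3 (12.9%). Spic, the transcription factor of red pulp macrophages, had the largest difference of the list (1.70, SE 0.42, adjusted p = 0.064), and read 5.71, 6.42 and 5.21 against 8.49, 7.22 and 6.73. Clec4n, which encodes dectin-2, read 5.47, 5.82 and 4.86 against 7.70, 6.80 and 6.08 (1.48, SE 0.37, adjusted p = 0.064). Both had the order of arrays seen for Adgre1. At the other end stood Cebpa, a transcription factor of myeloid cells (-0.45, SE 0.13, adjusted p = 0.096), Itgam and Cst3, which encodes cystatin C (-0.28, SE 0.10, adjusted p = 0.18). Competent 3 was the lowest array for 15 and deficient 1 the highest for 16 of the 25 genes, against 16.5% and 15.2% of all tested genes.

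The labelled cell type was borne out by its markers in every array. The mean of 13 tested T cell genes lay between 10.43 and 10.65 in the competent and between 10.41 and 10.46 in the deficient arrays. The mean of 11 Treg genes lay between 9.65 and 9.92 and between 9.66 and 9.69. Of the T cell genes 0 passed and 1 had an unadjusted p under 0.05, Cd28 (-0.36, SE 0.09, adjusted p = 0.075), followed by Cd5 (-0.26, SE 0.13, adjusted p = 0.30). The Treg genes had a median difference of -0.20, with 9 of 11 below 0. Unadjusted p-values were under 0.05 in the lower direction for 5 of them and in the higher direction for 1, Lrrc32. The share of all tested genes was not computed for the lower direction. The groups did not overlap, with the MHC II-deficient group lower, for 5 (12.9% of all tested genes), Il2ra, Ctla4, Ikzf2, Tnfrsf4 and Nrp1, and their part in the difference of the 10 genes was not tested. Of these Nrp1 fell by 0.58 (SE 0.13, adjusted p = 0.048), and Tnfrsf4, which encodes OX40, stood at -0.50 (SE 0.13, adjusted p = 0.077).

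Markers of further cell types that a sort could hold had smaller median differences than the 10 genes, and their part in the result was not tested. The median difference was 0.02 for 4 tested neutrophil genes of 11 with a row, 0.04 for 8 of 11 dendritic cell genes, 0.16 for 6 of 10 B cell genes, 0.14 for 7 of 10 genes of CD8 T and NK cells and 0.01 for 2 of 8 genes of mast cells and basophils. It was 0.15 for 5 of 6 erythroid, 0.14 for 3 of 5 platelet and 0.14 for 6 of 8 stromal genes. The remaining genes with a row lay under the filter value, among them the defining markers S100a8 and Ly6g of neutrophils, Xcr1 and Clec9a of dendritic cells, Ms4a1 of B cells, Ncr1 of NK cells and Pf4 of platelets. The mean of the dendritic cell genes ran from 5.63 to 5.75 in the competent and from 5.72 to 5.82 in the deficient arrays, and that of the neutrophil genes from 5.32 to 5.58 and from 5.40 to 5.57. The means of the 10 genes ran from 5.77 to 6.92 and from 6.93 to 7.89. Of all these lists, 1 gene passed limma's threshold, Klrg1 of the CD8 T and NK cell list, which fell by 1.27 (SE 0.26, adjusted p = 0.034) and which some Tregs also express.

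The differences of the 2 genes of smallest p in each of these lists ranged more widely than the medians, Klrg1 being the largest in size. They were Mpo (0.21) and Camp (0.07) for neutrophils, Ccl22 (0.26) and Siglech (0.19) for dendritic cells, Cd79b (-0.39) and Cd79a (0.46) for B cells, and Gzmb (-0.43) beside Klrg1. They were Gata2 (0.22) and Kit (-0.21) for mast cells and basophils, Alas2 (0.52) and Rhd (0.19) for erythroid cells, Gp9 (0.32) and Treml1 (0.14) for platelets, and Ccl19 (0.55) and Col1a1 (0.18) for stromal cells. Alas2 had the smallest adjusted p of those other than Klrg1 (0.11).

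**Figure D4:**
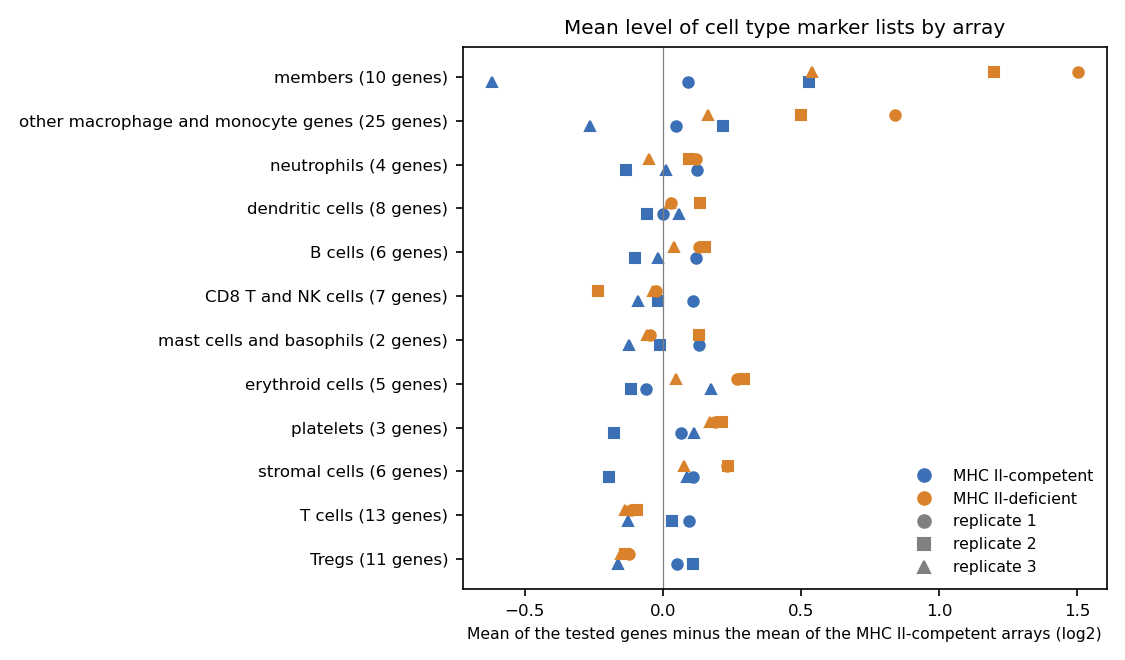
For each list, the mean of its tested genes in an array minus the mean over the MHC II-competent arrays (log2, horizontal axis) is plotted for the 3 competent (blue) and 3 deficient (orange) arrays; symbols mark the replicate number. The 10 genes spread most, from 5.77 to 7.89 in level, followed by the other macrophage and monocyte genes, from 6.47 to 7.57.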

How the data were processed

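RNA of sorted mouse Tregs was hybridised to 6 Affymetrix arrays of 1 colour, 3 per group. The deposited table holds log2 values for 28101 rows, made by the authors with the R package affy and RMA, per the submitters' processing notes. RMA sets the arrays to a common distribution, so a difference is relative to the whole array; the medians of the arrays lay from 6.11 to 6.25. The log base is not stated and was taken as 2, which RMA gives; the values ran from 2.40 to 13.3. Versions, annotation and the genome build of the array rows are not given in the sources used here; the number of arrays limits the precision.

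Rows with 1 platform gene symbol (21640) were kept, symbols were updated by Entrez identifier (21553 found), and where a gene had several rows the one of highest mean was used. Genes with a mean under 5.21, the 25th percentile of these rows, were left out. MHC II-deficient minus MHC II-competent was fitted over all 6 arrays in limma 3.58.1 (R 4.3.3; linear model with moderated statistics, two-sided, 4 residual degrees of freedom), with Benjamini-Hochberg adjustment over 15037 genes. Errors of differences are limma's standard errors.

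The 10 genes and all lists were chosen with earlier results of these data known, and lists are described by counts and medians only. From each pathway list the text names the genes past the threshold and otherwise the 2 with the smallest p, from each marker list the 2 with the smallest p, and the 8 genes closest in pattern to the 10; further genes of the lists were named after their values were seen. Alternatives were other filters, quantile normalization, median centring, array weights, a trended robust prior, the mean of a gene's rows, the replicate number as a block, and leaving out each array. The fit was checked on data with known answers before use.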

Additional observations from a re-analysis of the deposited data

How the results depend on the processing

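Over 14 alternatives none of the 10 genes changed sign (138 single values, since a filter at the median removed Lyz2 and Cd14), and the median difference ran from 0.83 without competent 3 to 1.52 without competent 2, against 1.22. The count of genes past the threshold was less stable than the sizes. It was 1, and 0 with the arrays quantile-normalized or centred on their medians and with a trended, robust variance prior, where limma's unadjusted p was under 0.05 for 8, 8 and 7 genes. It was 3 with array weights (Adgre1, Tyrobp and Fcer1g) and 0 to 3 with 1 array left out, 3 without deficient 3 and 0 without each of the other 5 arrays, with 6 to 9 genes then at an unadjusted p under 0.05. The cause was not tested. No gene was lower past the threshold in any setting. Of all tested genes, 1.34% rose in the main fit and 1.92% with array weights. The share was 1.53% with quantile normalization, 0.845% with median centring and 1.48% with a trended robust prior. It was 0.505% to 1.48% with 1 array left out, and 0.924% without deficient 3. For the unadjusted p, the share of all tested genes is given only for the main fit in the higher direction (7.85%). No such share was computed for the lower direction, so counts of list genes in that direction have no background. Over all tested genes 507 were past the threshold, 201 higher and 306 lower; quantile normalization gave 230 and 230, median centring 127 and 297, and leaving out 1 array 159 to 708.

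With the replicate number as a block, 8 of the 10 genes passed, all but Lyz2 and Cd14 (564 of all genes, 246 higher or 1.64% of those tested). The labels do not say that numbers pair the arrays. Over all tested genes the deviations from the group means correlated at -0.02, -0.14 and 0.07 between arrays of the same number. Competent 1 correlated better with deficient 2 (0.17). With 3 arrays per group, these correlations cannot decide whether arrays of the same number were prepared together, and pairing was not tested. For 8 of the 10 genes, the third preparation was the lowest of its group in both groups. The share of all tested genes was not computed, and these genes follow a shared pattern, so this count cannot decide on pairing either.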
